A study of Mus musculus with 33 samples.

Results

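The 10 genes described here are the immediate early genes Fos, Fosb, Jun, Junb, Egr1, Ier2, Ier3, Atf3, Dusp1 and Myc. They were taken by symbol from 21844 mouse genes, to which the deposited transcript counts of 33 libraries had been summed. The cells were differentiating mouse embryonic stem cells grown without serum as embryoid bodies, dispersed on day 2 and harvested on day 4. Treatment began on day 2, so the cells were harvested days, not minutes, after its start. The libraries used for the dose comparison were SB (the activin receptor inhibitor SB-431542, 1 library), AA3, AA15 and AA100 (activin A at 3, 15 and 100 ng/mL, with 1, 2 and 1 libraries) and SFM (control cells with neither agent, 2 libraries). The method was DP-seq, in which a defined set of heptamer primers amplifies the cDNA. AA100 and AA3 were compared again by standard RNA-seq from 20 ng of mRNA (1 AA100 and 2 AA3 libraries), by DP-seq from 50 pg (2 and 1) and by SMART-seq from 50 pg (2 and 2), a method that amplifies full-length cDNA. Further DP-seq libraries, all from AA3 mRNA, made up a dilution series of 1 pg to 10 ng, a test of 3 primer sets and 1 paired-end library. All samples are whole embryoid bodies, so that fewer cells of a type and less RNA per cell cannot be told apart. The labels call the repeated libraries technical replicates, except for the SFM pair, of which 1 library also carried spiked yeast transcripts. The p-values therefore measure the spread between these libraries and not between cultures.

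Immediate early genes are transcribed within minutes of a growth factor, serum or stress signal, from factors already present in the cell, and their mRNAs are mostly short-lived. MAP kinase signalling through serum response factor and its ternary complex factors, and CREB acting at cyclic AMP response elements (CREs), are the best known routes to them. Their products include the AP-1 transcription factors, which meet activin's Smad proteins at some shared target genes, as well as phosphatases and RNA-binding proteins that end the same signal.

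Total counts lay between 13053122 and 15707808 in the dose set, between 10389043 and 10738438 in standard RNA-seq, between 10678979 and 13389156 in 50 pg DP-seq and between 25897343 and 30609013 in SMART-seq. The SFM pair stood apart: the log2 ratio of its 2 libraries had an SD of 1.62 over 10920 genes, against 0.369 over 10991 genes for the AA15 pair. Its second library, the one with yeast transcripts, had a summed level of 373.6 CPM (counts per 1000000 counts of the library's total) for 8 pluripotency genes and 873.9 CPM for 8 neuroectoderm genes, against 1362 and 412 CPM in the first. Changes against SFM are therefore also given without each of its libraries where a call depended on it. Summed endoderm markers (6 genes) were at 54.2 CPM in SB, 94.1 and 53.3 CPM in SFM, 119 CPM in AA3, 289 and 256 CPM in AA15 and 920.0 CPM in AA100. Markers of blood and immune cells were near 0 in the standard RNA-seq libraries, with Ptprc at 0 and sums of 6.83 CPM in AA100 and 7.73 and 6.05 CPM in AA3.

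In standard RNA-seq, the method that detected all 10 genes in every library, 6 of the 10 were higher in AA100 than in AA3. They were Ier3, Myc, Ier2, Dusp1, Egr1 and Jun, and none was lower, in a comparison that called 31.1% of 12605 genes higher and 31.1% lower. Of these 6 genes, Myc, Ier2 and Egr1 were not in the promoter search. For the others, Jun, Dusp1 and Ier3, it used entries of RefSeq's promoter table (GRCm38.p6). The 250 bases before their start sites are shown because these genes were all higher in AA100 by standard RNA-seq, and because their promoters differ in the sites they carry. In the other methods Dusp1 had a log2 change of -0.06 ± 0.39 (50 pg DP-seq) and Jun of -0.57 ± 0.79 (SMART-seq), while their remaining changes and those of Ier3 were above 0. Shared regulation was not tested. Jun lies on the minus strand at chr4:95052223-95052472, Dusp1 on the minus strand at chr17:26508473-26508722 and Ier3 on the plus strand at chr17:35821463-35821712. Capitals mark every match to a searched motif, on either strand.
Jun: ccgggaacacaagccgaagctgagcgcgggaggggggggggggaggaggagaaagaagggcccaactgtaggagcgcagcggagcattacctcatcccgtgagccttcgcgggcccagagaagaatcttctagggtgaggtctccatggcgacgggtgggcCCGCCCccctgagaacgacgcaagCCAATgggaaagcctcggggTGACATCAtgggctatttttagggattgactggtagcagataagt
Dusp1: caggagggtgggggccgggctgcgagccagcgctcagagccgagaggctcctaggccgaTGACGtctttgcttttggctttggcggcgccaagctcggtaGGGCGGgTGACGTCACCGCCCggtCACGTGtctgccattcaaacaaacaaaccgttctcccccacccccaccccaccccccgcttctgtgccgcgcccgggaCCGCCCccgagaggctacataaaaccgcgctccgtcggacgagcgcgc
Ier3: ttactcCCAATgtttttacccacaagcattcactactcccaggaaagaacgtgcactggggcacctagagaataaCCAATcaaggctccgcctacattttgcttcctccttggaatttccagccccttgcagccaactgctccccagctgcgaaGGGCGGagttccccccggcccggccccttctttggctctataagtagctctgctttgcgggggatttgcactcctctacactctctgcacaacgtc

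The capitals in Jun mark a GC box (GGGCGG, here as its complement), a CCAAT box (CCAAT) and the AP-1-like Jun element TGACATCA, which begins at -45 with the start site as 0. That element was found in 3.619% of the 32851 promoters searched over the same 300 bases. No other of the 7 immediate early genes searched had it. Dusp1 carried a full CRE (TGACGTCA) at -143, directly followed by a GC box, and an E box (CACGTG) at -126, which were found in 1.79% and 7.15% of promoters. Ier3 carried 2 CCAAT boxes and 1 GC box, motifs present in 37.4% and 35.7% of promoters. The short CRE core TGACG, which lies within the full CRE, was in the windows of Fos, Fosb, Junb, Atf3 and Dusp1. It was in 20.8% of the promoters searched. None of the 7 windows held AP-1 (TGANTCA), the Smad palindrome (GTCTAGAC), the FoxH1 motif (AATCCACA) or the SRF CArG box, which says only that these letters are not in this window. TATAAA was found in Fos and Junb.

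Levels of different genes were compared as CPM per kilobase of transcript. On that scale Ier2 was the most abundant of the genes in standard RNA-seq, with 89.4 in AA100 and 64.1 and 61.5 in AA3. Egr1 (22.2 against 15.8 and 15.7), Dusp1 (18.6 against 13.0 and 13.1) and Jun (17.99 against 13.3 and 13.4) followed. The AA3 libraries of Dusp1 (13.0 and 13.1) and Jun (13.3 and 13.4) differed by less than 1 unit and are not told apart here. Junb was at 10.6 in AA100 and at 10.1 and 8.55 in AA3. Ier3 had a higher level than Junb in AA100 (15.1) and a lower one in AA3 (3.87 and 3.40), and so took a different place in the order of the 2 groups. Atf3, Fos, Myc and Fosb lay at or below 2.09 in every library, with Myc at 0.782 in AA100 and at 0.119 and 0.0822 in AA3. Atf3 and Fos had overlapping ranges in AA3 (1.55 to 1.60 and 1.33 to 1.60).

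Ier3, whose product protects cells from apoptosis and modulates ERK signalling, showed the largest standard RNA-seq difference of the 10 after Myc, and with more counts. Standard RNA-seq gave it 17.0 CPM in AA100 and 4.38 and 3.84 CPM in AA3. The log2 change was 2.07 ± 0.18 (SE; adjusted p = 2.5e-29, edgeR's quasi-likelihood test with Benjamini-Hochberg adjustment over all 12605 genes tested). SMART-seq gave 31.3 and 45.2 CPM in AA100 against 2.88 and 7.71 CPM in AA3, and 50 pg DP-seq gave 2.72 and 3.51 CPM against 1.498 CPM. The groups thus did not overlap in any of the 3 methods, and the direction was the same in each. Of all 14072 genes measured across the methods, 7.66% were higher without overlap in all 3 methods, and of the 10 immediate early genes Ier3 was the only one. The share of genes lower in all 3 was 7.04%, and none of the 10 was among them. The SMART-seq change of 2.80 ± 0.56 did not pass the threshold in that method's own fit (adjusted p = 0.0934, edgeR) and passed it in DESeq2 (adjusted p = 1.4e-06) and in a joint fit of the 10 libraries (adjusted p = 0.0427, edgeR). In DP-seq the change was 1.04 ± 1.72 (adjusted p = 0.850, edgeR).

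Myc, a transcription factor of growth and proliferation, had 19 counts in AA100 and 3 and 2 counts in AA3 by standard RNA-seq, or 1.83 CPM against 0.279 and 0.192 CPM. The groups did not overlap, but Myc passed the filter on low counts in standard RNA-seq only through its AA100 library. A gene let in that way could hardly be called lower. The log2 change of 2.91 ± 0.71 passed the test (adjusted p = 1.1e-04, edgeR), while DESeq2 gave Myc no adjusted p. SMART-seq had 14 and 4 counts in AA100 against 2 and 1 counts in AA3, too few for the filter on low counts. Myc had no count in the 3 DP-seq libraries at 50 pg. It is the only one of the 10 genes listed under more than 1 transcript, so if reads shared by its transcripts were not counted as unique, its values are too low.

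The other 4 genes that rose in standard RNA-seq did so by similar amounts. Ier2, a nuclear protein of the immediate early class, had 136 CPM in AA100 against 97.6 and 93.7 CPM in AA3, a log2 change of 0.53 ± 0.05 (adjusted p = 1.9e-24, edgeR). Dusp1, the phosphatase that inactivates MAP kinases, had 37.0 CPM against 25.9 and 26.1 CPM, a change of 0.53 ± 0.10 (adjusted p = 1.6e-07). Egr1, a zinc finger transcription factor and serum response factor target, had 67.3 CPM against 48.0 and 47.6 CPM, a change of 0.52 ± 0.07 (adjusted p = 3.0e-12). Jun, the AP-1 subunit that pairs with Fos proteins, had 57.4 CPM against 42.3 and 42.8 CPM, a change of 0.46 ± 0.08 (adjusted p = 1.2e-08). In each of these 4 genes the AA3 libraries lay close together. That the AA100 library lay above both follows from the calls and adds nothing to them. Junb, Atf3 and Fos, which were not called, had the same order.

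The remaining 4 genes did not pass the test in standard RNA-seq. Junb, an AP-1 subunit with weaker activity than Jun, had 19.3 CPM in AA100 and 18.3 and 15.5 CPM in AA3, a log2 change of 0.21 ± 0.12 (adjusted p = 0.146, edgeR). Atf3, a stress-responsive partner of Jun, had 4.14 CPM against 3.17 and 3.07 CPM (0.43 ± 0.28, adjusted p = 0.182). Fos and Fosb, the partners that bind DNA only together with a Jun protein, had 36 and 13 counts in AA100. Fos was at 3.47 CPM in AA100 and at 2.79 and 3.36 CPM in AA3, and Fosb at 1.25 CPM in AA100 and at 1.21 and 1.73 CPM in AA3. At these counts the log2 change of Fos was 0.20 ± 0.30 and that of Fosb -0.20 ± 0.51, both within their errors, and the Fosb groups overlapped.

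**Figure D1:**
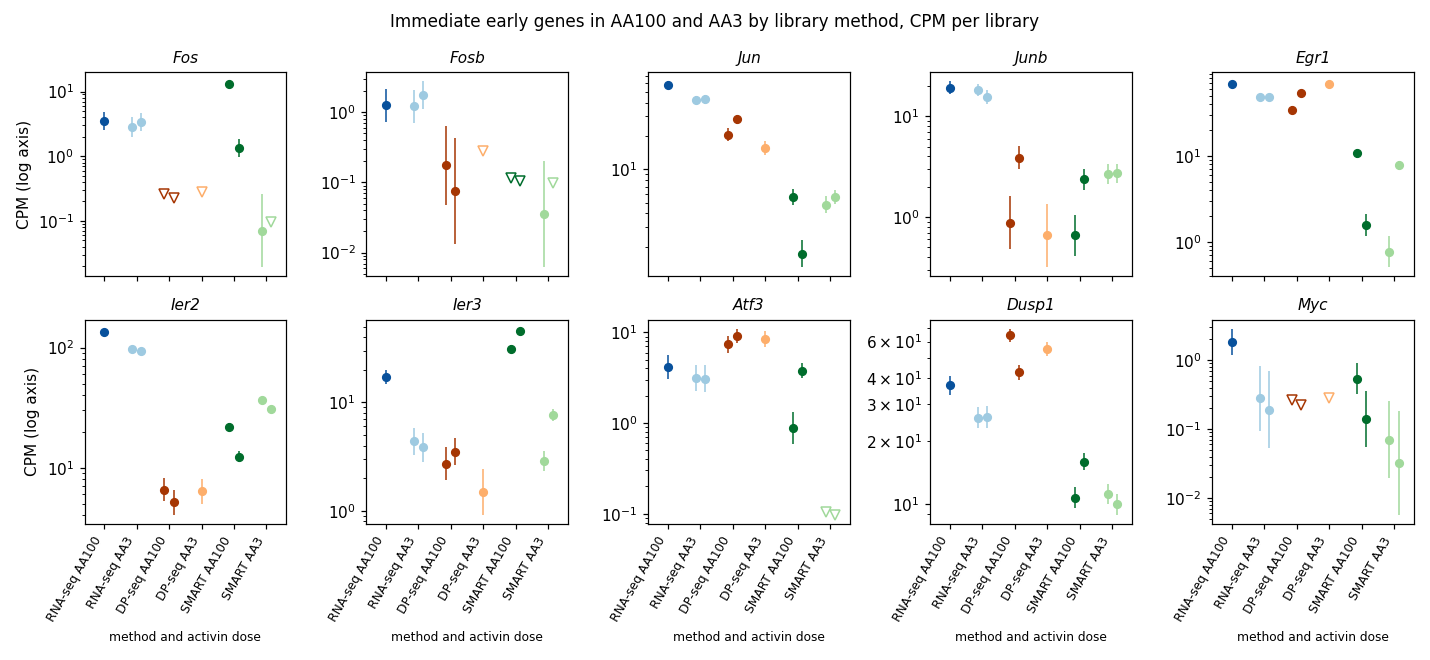
CPM (log axis) of the 10 immediate early genes in AA100 and AA3 libraries by method, 1 point per library, with Wilson 95% intervals for counting error as bars. Open downward triangles stand for libraries with no count and are drawn at the level of 3 counts. Ier3 lies higher in AA100 in every method, at 17.0 CPM against 4.38 and 3.84 CPM in standard RNA-seq.

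The 6 calls have to be read against a comparison in which most genes were called. Of the 12605 genes tested in standard RNA-seq, 62.3% passed the threshold, 31.1% as higher and 31.1% as lower. The median log2 change of the 10 immediate early genes was 0.49, against -0.01 for all genes tested, and 9 of the 10 changes were above 0. Myc, let in by its AA100 library alone, counts toward the 9 and the 6 calls. In SMART-seq the median of the 8 tested was 0.378, against 0.007 for all genes, with 5 above 0. Fos and Atf3 are among those 5, and both passed the filter on low counts there through the AA100 libraries alone. The others above 0 were Ier3 at 2.80, Egr1 at 0.47 and Dusp1 at 0.28. Jun at -0.57, Junb at -0.88 and Ier2 at -1.03 lay below 0. In 50 pg DP-seq the median of the 7 tested was -0.055, against 0.072 for all genes, with 3 above 0. The shift was thus not seen in 50 pg DP-seq, and in SMART-seq it rested in part on Fos and Atf3. AA100 is a single library here, and the spread in this fit came from 2 technical AA3 libraries alone. With the spread of all 10 libraries of the 3 methods in 1 fit, none of the 10 genes passed, with Ier3 lowest at an adjusted p of 0.247 (edgeR), and 269 genes passed in all. Summed endoderm markers stood at 1245 CPM in AA100 and 632 and 627 CPM in AA3, with 6 of 6 genes higher. Trophoblast markers stood at 324 CPM in AA100 and 672 and 669 CPM in AA3, with 2 of 4 tested genes lower, 2 higher and Elf5 at 0, and a list of stress genes at 10493 CPM in AA100 and 9515 and 9472 CPM in AA3. Their part in the result was not tested.

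In DP-seq from 50 pg, none of the 7 testable genes passed, in a comparison where 3.43% of 11631 genes did. Jun had 20.6 and 28.2 CPM in AA100 against 15.6 CPM in AA3, and a log2 change of 0.63 ± 0.55 (adjusted p = 0.657, edgeR). Egr1 had 34.4 and 53.9 CPM in AA100 against 67.8 CPM in AA3, which is the opposite order from standard RNA-seq, with a change of -0.63 ± 0.39 (adjusted p = 0.470). Both orders rest on 1 AA3 library. The AA3 libraries from 50 pg in the dilution series had Egr1 at 27.2 and 29.6 CPM, below both AA100 libraries. Jun was there at 43.1 and 36.4 CPM, above both AA100 libraries. Neither order therefore held against those libraries, and the difference between the AA3 libraries was not tested. Junb had 0.877 and 3.88 CPM in AA100 against 0.655 CPM in the AA3 library of this comparison. Dusp1 (64.2 and 42.8 CPM against 55.3 CPM), Atf3 (7.37 and 9.19 against 8.52 CPM) and Ier2 (6.58 and 5.15 against 6.37 CPM) had the AA3 library between both AA100 libraries. Fos and Myc had no count in any of the 3 libraries, which allows up to 0.281 CPM at the shallowest of them for 3 counts, and Fosb had at most 2 counts.

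In SMART-seq from 50 pg, none of the 8 testable genes passed either, against 1.35% of 11453 genes. The spread between its technical replicates was wide: among the 8 genes with enough counts the log2 ratio of the AA100 pair ran from -2.86 to 1.62. Fos had 333 and 38 counts in AA100, or 12.9 and 1.34 CPM, against 2 counts and 0 in AA3. The ratio of the summed counts was 202, with an exact 95% counting interval of 55.5 to 1674 that does not cover the spread between libraries. The ratio was 39.6 without the first AA100 library, 380 without the second and 97.3 without the second AA3 library, and at least 72.4 without the first, against the floor of 3 counts per library. Atf3 had 23 and 107 counts in AA100 and none in either AA3 library, at least 22.1-fold higher by the mean CPM of AA100 against a floor of 3 counts per AA3 library. Without the first AA100 library the bound was 35.8-fold, and without the second it was 8.42-fold. For both genes the groups did not overlap, the adjusted p-values were 0.135 and 0.138 (edgeR), and DESeq2 called both (6.0e-05 and 5.7e-03). DESeq2 called 1135 of 11453 genes in this comparison. How many of all genes had no overlap within a single method was not counted. With so few libraries such an order alone says little. Neither passed the test in standard RNA-seq, where the Fos change was 0.20 ± 0.30. In SMART-seq both had passed the filter on low counts through the AA100 libraries alone, so they could hardly be called lower.

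Ier2 had 21.9 and 12.4 CPM in AA100 against 36.3 and 30.8 CPM in AA3 by SMART-seq, without overlap and in the opposite order from standard RNA-seq. Its log2 change was -1.03 ± 0.36 (adjusted p = 0.239, edgeR). Junb (0.656 and 2.36 CPM against 2.67 and 2.71 CPM) was also lower without overlap, with an adjusted p of 0.779. Jun (5.60 and 1.73 CPM against 4.81 and 5.62 CPM), Egr1 (10.7 and 1.59 against 0.773 and 7.74 CPM) and Dusp1 (10.7 and 16.0 against 11.2 and 9.96 CPM) had overlapping groups. For Egr1 the 2 libraries of each group differed more than the groups did.

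The differences between methods were tested directly in the joint fit. None of the 10 genes passed for DP-seq minus standard RNA-seq, SMART-seq minus standard RNA-seq or SMART-seq minus DP-seq, where 0.739%, 0.853% and 0.0213% of 14072 genes did. Fos and Myc, with no count in 50 pg DP-seq, could not pass either difference that involves it. The opposite signs of Ier2 gave a SMART-seq minus standard difference of -1.63 ± 0.50 on the log2 scale (adjusted p = 0.285, edgeR), and Ier3 gave 0.66 ± 0.85 (adjusted p = 0.929). Both errors are wide, and a missed threshold does not show that the methods measured the same change.

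**Figure D2:**
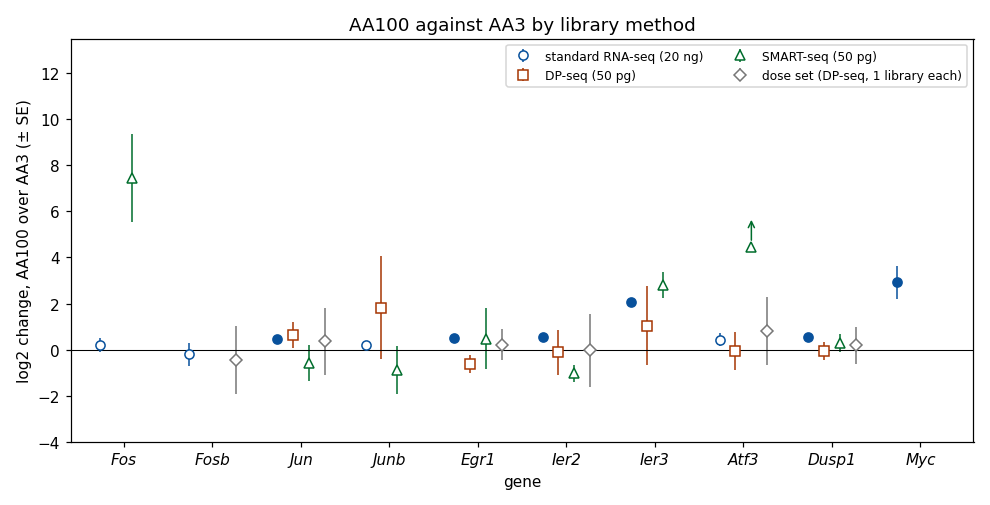
Log2 change of AA100 over AA3 for each immediate early gene by method and, as diamonds, in the dose set, with standard errors as bars. Filled points passed an adjusted p of 0.05, open points did not, and the arrow for Atf3 in SMART-seq marks a lower bound, set by a floor of 3 counts per library. Ier3 lies above 0 in all 3 methods, with 2.07, 1.04 and 2.80 in standard RNA-seq, DP-seq and SMART-seq.

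Across the dose set the same genes were seen at DP-seq's own levels. The inhibitor, control and dose comparisons asked how each gene followed activin signalling. No gene of 12180 passed an adjusted p of 0.05 in SB, AA3, AA15 or AA100 against SFM, or in AA100 against AA3, so that 0% were called. At an unadjusted p under 0.05 there were 179, 197, 702, 541 and 128 genes, and DESeq2 called 17, 14, 168, 106 and 0. None of the 10 genes was called by either tool. Without the first SFM library, 4 of the 6 tested genes were called in each comparison with SFM: Jun, Atf3 and Ier2 higher, with Dusp1 lower in SB and Fosb lower at each dose. Between 6921 and 7815 of 12080 genes were called then. Without the second, 498 to 1570 of 12076 genes were called, among them Jun and Dusp1 in AA15 and AA100 and Atf3 in AA15. With the SFM pair in the fit the spread is so wide that a missing call says nothing about stability. Fos, Junb, Ier3 and Myc were below the filter on low counts, and the other 6 were tested.

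Among the AP-1 genes, Jun had 13.4 CPM in SB, 17.0 and 1.38 CPM in SFM, 26.7 CPM in AA3, 28.0 and 33.2 CPM in AA15 and 34.4 CPM in AA100. Every activin library lay above SB and both SFM libraries, and SB lay between the SFM libraries. The CPM values rose with the dose, but neighbouring activin doses were not separated beyond counting error. The Wilson intervals were 24.2 to 29.4 CPM in AA3 and 25.5 to 30.7 CPM in the first AA15 library. They were 30.4 to 36.3 CPM in the second AA15 library and 31.6 to 37.5 CPM in AA100. How many of all genes had the same order as Jun was not counted. Its log2 change was 1.97 ± 1.20 in AA100 and 1.82 ± 1.05 in AA15 against SFM, and its slope per dose step over SFM, AA3, AA15 and AA100 was 0.70 ± 0.36 (adjusted p = 0.441, edgeR). That slope was 1.05 ± 0.49 without the first SFM library (adjusted p = 0.236) and 0.36 ± 0.11 without the second (adjusted p = 0.0733). The trend called 0.397% of 12102 genes. Without the second SFM library, Jun rose by 1.13 ± 0.31 in AA100 (adjusted p = 0.00548) and by 0.98 ± 0.28 in AA15 (adjusted p = 0.00738). Without the first, the changes were 4.27 ± 0.41 and 4.11 ± 0.39, also past the threshold, so the size of the difference depends on which control library is kept.

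Atf3 had 8.24 CPM in SB, 3.96 and 0.230 CPM in SFM, 3.44 CPM in AA3, 10.5 and 10.7 CPM in AA15 and 6.02 CPM in AA100. The 2 AA15 libraries were the highest and the SB library came next, so the level did not follow the dose. The change in AA15 against SFM was 2.40 ± 1.10 (adjusted p = 0.768, edgeR). It passed without the second SFM library, at 1.55 ± 0.35 (adjusted p = 3.9e-04), and without the first, at 5.13 ± 0.59. Fosb was low throughout, with 12 counts in SB, 8 and 21 in SFM, 7 in AA3, 5 and 8 in AA15 and 5 in AA100. Its highest value, 1.61 CPM, was that of the SFM library with yeast transcripts. Without the first SFM library its AA100 change was -2.65 ± 0.93 (adjusted p = 0.00908), and without the second -0.56 ± 1.09 (adjusted p = 0.827). The AA15 change was -2.23 ± 0.74 (adjusted p = 0.00503) and -0.13 ± 0.90 (adjusted p = 0.955), and the AA3 change -2.19 ± 0.88 (adjusted p = 0.0248) and -0.11 ± 1.03 (adjusted p = 0.983), without the first and without the second. Fos and Junb had at most 8 counts in any of the 7 libraries.

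Egr1 was the gene with the most counts, between 882 and 1983 in a library. It had 103 CPM in SB, 92.7 and 67.6 CPM in SFM, 93.2 CPM in AA3, 110 and 136 CPM in AA15 and 109 CPM in AA100. The largest of its 4 changes against SFM was 0.53 ± 0.48 in AA15 (adjusted p = 0.781, edgeR). Leaving out either SFM library left it at 0.51 ± 0.25 (adjusted p = 0.0670, without the first) and 0.54 ± 0.25 (adjusted p = 0.144, without the second), so Egr1 was the tested gene whose AA15 change depended least on the control library. SB lay within the range of the activin libraries.

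Dusp1 had 17.8 CPM in SB, 17.9 and 25.9 CPM in SFM, 28.6 CPM in AA3, 27.5 and 38.4 CPM in AA15 and 32.6 CPM in AA100. By CPM the 4 activin libraries lay above both SFM libraries. SB and the first SFM library had overlapping Wilson intervals (15.7 to 20.0 and 15.9 to 20.2 CPM) and were not told apart. On the scaling used in the tests, the order against the second SFM library alone did not hold. Dusp1 then changed by -0.22 in AA3, -0.003 in AA15 and -0.04 in AA100. Against both SFM libraries its change was 0.39 ± 0.69 in AA100 and 0.42 ± 0.57 in AA15. Without the second SFM library it rose by 0.97 ± 0.31 in AA100 (adjusted p = 0.0215, edgeR) and by 1.02 ± 0.28 in AA15 (adjusted p = 0.00543). Without the first, the values were -0.04 ± 0.31 and -0.003 ± 0.27, and no call was made.

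Ier2 had 2.39 CPM in SB, 3.44 and 0.153 CPM in SFM, 2.36 CPM in AA3, 2.74 and 2.67 CPM in AA15 and 2.33 CPM in AA100. Apart from the second SFM library these lay between 2.33 and 3.44 CPM, with the first SFM library highest. Without the first SFM library Ier2 was called higher in SB and at every dose, by 3.50 ± 0.89 in AA100 (adjusted p = 2.3e-04, edgeR), and without the second the change was -0.45 ± 0.49 (adjusted p = 0.650). Ier3 had 4 counts in SB, 5 and 1 in SFM, 1 in AA3, 10 and 6 in AA15 and 3 in AA100. Myc had at most 1. The AA100 to AA3 difference of Ier3 seen by the other methods was therefore not detectable at these counts.

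**Figure D3:**
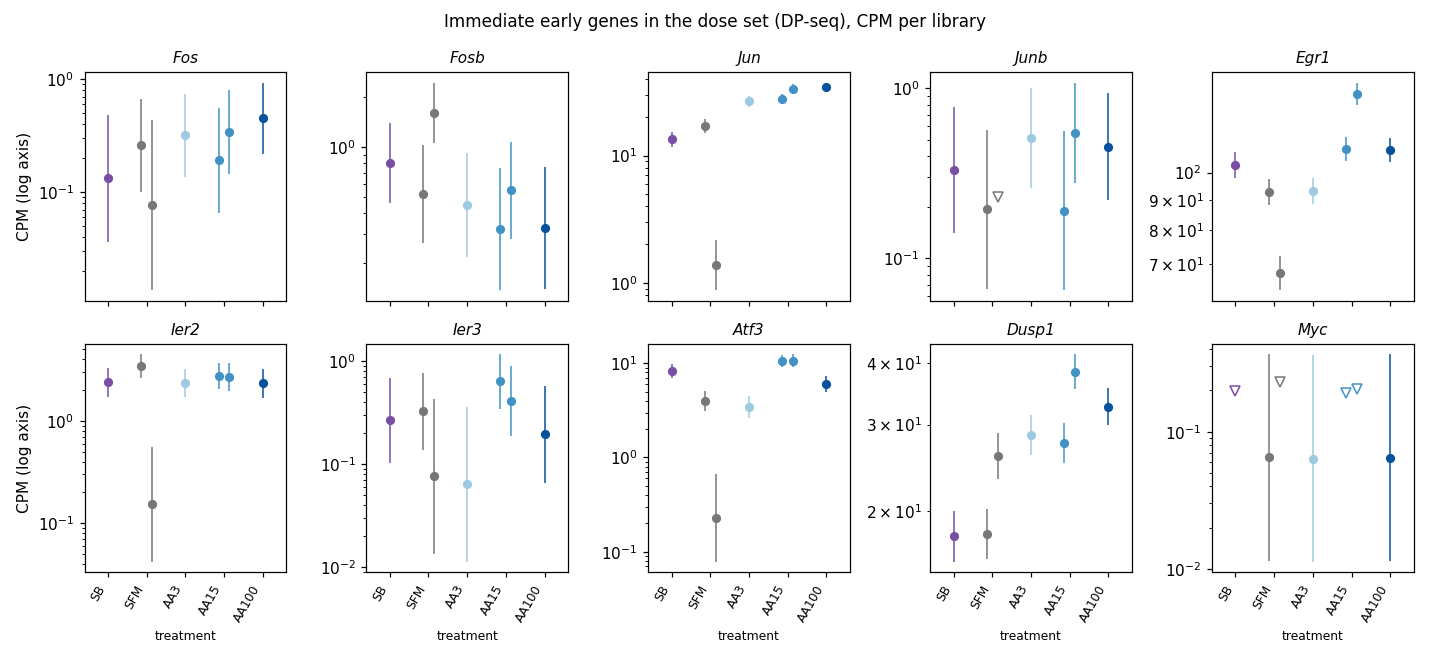
CPM (log axis) of the 10 immediate early genes in the 7 dose-set libraries, in the order SB, SFM, AA3, AA15 and AA100, 1 point per library with Wilson 95% intervals as bars. Open downward triangles stand for no count and are drawn at the level of 3 counts. Jun lies at 13.4 CPM in SB and at 34.4 CPM in AA100, while the second SFM library lies apart at 1.38 CPM.

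Summed over the 10 genes, the share of all counts was 0.0146% in SB, 0.0136% and 0.00970% in SFM, 0.0156% in AA3, 0.0180% and 0.0223% in AA15 and 0.0186% in AA100. By standard RNA-seq it was 0.0345% in AA100 and 0.0244% and 0.0238% in AA3. By SMART-seq it was 0.00951% and 0.00845% in AA100 and 0.00588% and 0.00646% in AA3, and by 50 pg DP-seq 0.0137% and 0.0147% in AA100 and 0.0156% in AA3. Every AA100 library lay above every AA3 library of its method except in 50 pg DP-seq. In SMART-seq Ier3 alone gave 810 and 1282 of the 2464 and 2396 counts in AA100. It gave 82 and 236 of the 1673 and 1976 counts in AA3. The order of the sums in SMART-seq therefore does not describe the other genes, of which Ier2 and Junb had the opposite order.

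Of 45 other listed genes of the class, 39 were tested in standard RNA-seq, and 16 were higher and 8 lower in AA100, with a median log2 change of 0.12. Over all genes 31.1% were called in each direction, and the list was not tested against the 10 genes. Ccn2, a matricellular protein and Smad and YAP target, had 43.0 CPM in AA100 against 8.29 and 9.22 CPM in AA3 (2.32 ± 0.12, adjusted p = 4.2e-84, edgeR). Zfp36, which destabilises AU-rich mRNAs, had 187 counts in AA100 against 51 and 56 counts in AA3 (1.85 ± 0.17), and the cytoskeletal protein gene Arc had 32.7 CPM against 9.22 and 12.2 CPM (1.64 ± 0.12). These 3 genes were also higher without overlap in the other methods, with Ccn2 at 14.8 and 9.93 CPM against 2.72 CPM in DP-seq and at 6.22 and 11.6 CPM against 2.67 and 4.31 CPM in SMART-seq. In all, 6 of the 39 listed genes measured across the methods did so, against 7.66% of all genes. Sgk1, a kinase, rose by 1.42 ± 0.20 in standard RNA-seq.

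Jund, the AP-1 subunit most often expressed without a stimulus, passed in 50 pg DP-seq, with 169 and 186 CPM in AA100 against 45.7 CPM in AA3 (1.94 ± 0.30, adjusted p = 2.6e-04, edgeR). It had 188 CPM against 110 and 108 CPM in standard RNA-seq. Dusp4, a nuclear MAP kinase phosphatase, passed in DP-seq too, with 19.1 and 30.9 CPM against 4.03 CPM (2.62 ± 0.68, adjusted p = 0.0289), but was lower in the AA100 library of standard RNA-seq, at 114 CPM against 150 and 145 CPM. Btg1, an antiproliferative gene, was the one listed gene with a difference between methods past the threshold, 2.08 ± 0.33 for DP-seq minus standard RNA-seq (adjusted p = 0.0453).

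Kinases and factors that act upstream gave 4 higher and 8 lower of 16 tested in standard RNA-seq, with a median of -0.12, beside 31.1% of all genes called in each direction. Braf, a kinase that activates MEK, had 98.6 CPM in AA100 against 157 and 166 CPM in AA3 (-0.69 ± 0.05, adjusted p = 7.0e-43, edgeR), and Mrtfa, a serum response factor coactivator, fell by 0.82 on the log2 scale. The kinase Rps6ka1 was called in DP-seq, with 44.6 and 34.8 CPM against 9.74 CPM. Of the 9 genes of the Myc network, 3 were higher and 3 lower, a share near the 31.1% of all genes in each direction. Among them were Max, Myc's partner, at 23 counts in AA100 against 11 and 7 in AA3, and Mga, a repressor that binds Max, at 7.12 CPM against 16.4 and 17.1 CPM. Max had the opposite order in SMART-seq, with 7 and 20 counts in AA100 against 33 and 31 in AA3. Of 13 stress genes tested, 8 were higher and 4 lower in standard RNA-seq, beside the same 31.1% each way. Hmox1, the haem oxygenase of the oxidative stress response, had 146 CPM in AA100 and 64.4 and 65.2 CPM in AA3 (1.19 ± 0.05). In SMART-seq it had 121 and 91.6 CPM in AA100 and 39.7 and 45.3 CPM in AA3, and the chaperone gene Hspa8 was the one stress gene called (0.44 ± 0.05, adjusted p = 0.0288). In the dose set none of these genes was called.

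The levels read in AA3 libraries differed between the sets, which also differ in mRNA amount. Ier2 had 97.6 and 93.7 CPM in standard RNA-seq and 36.3 and 30.8 CPM in SMART-seq, but 6.37 CPM in 50 pg DP-seq and 2.36 CPM in the dose set's AA3 library. Junb likewise had 18.3 and 15.5 CPM in standard RNA-seq, 2.67 and 2.71 CPM in SMART-seq and 0.509 CPM in the dose set. For Egr1 SMART-seq was likewise below standard RNA-seq and the dose set above it, with 48.0 and 47.6 CPM in standard RNA-seq, 0.773 and 7.74 CPM in SMART-seq and 93.2 CPM in the dose set. These levels are given as values, without a test across methods.

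Within DP-seq the amount of mRNA moved the levels as well. From 1 pg to 10 ng, Egr1 had 4.68 and 0 CPM at 1 pg, 8.53 and 19.2 CPM at 10 pg, 27.2 and 29.6 CPM at 50 pg, 36.2 and 31.9 CPM at 100 pg, 80.3 and 81.7 CPM at 1 ng and 98.0 and 123 CPM at 10 ng. Both libraries of each input lay above both libraries of the next lower input. Dusp1 had its highest levels in the middle of the series, with 57.6 and 82.3 CPM at 50 pg and 67.2 and 54.9 CPM at 100 pg, against 24.8 and 22.2 CPM at 10 ng. Jun had 22.1 to 43.1 CPM over the 10 libraries above 1 pg.

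Fos varied between technical replicates more than between inputs, with 0.489 and 13.8 CPM at 1 ng and 19.9 and 0.315 CPM at 10 pg. At 10 ng it had 12.5 and 4.84 CPM, and it had no count at 1 pg. Myc had no count in any of the 12 libraries. At 1 pg, with 427556 and 448933 counts in all, 3 and 2 of the 10 genes were detected. With the 3 primer sets, Egr1 had 32.02, 27.9 and 116 CPM in sets 1, 2 and 3, and Jun 5.50, 3.39 and 5.77 CPM, below its level in the paired-end library (30.1 CPM). These single libraries have no replicate check.

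**Figure D4:**
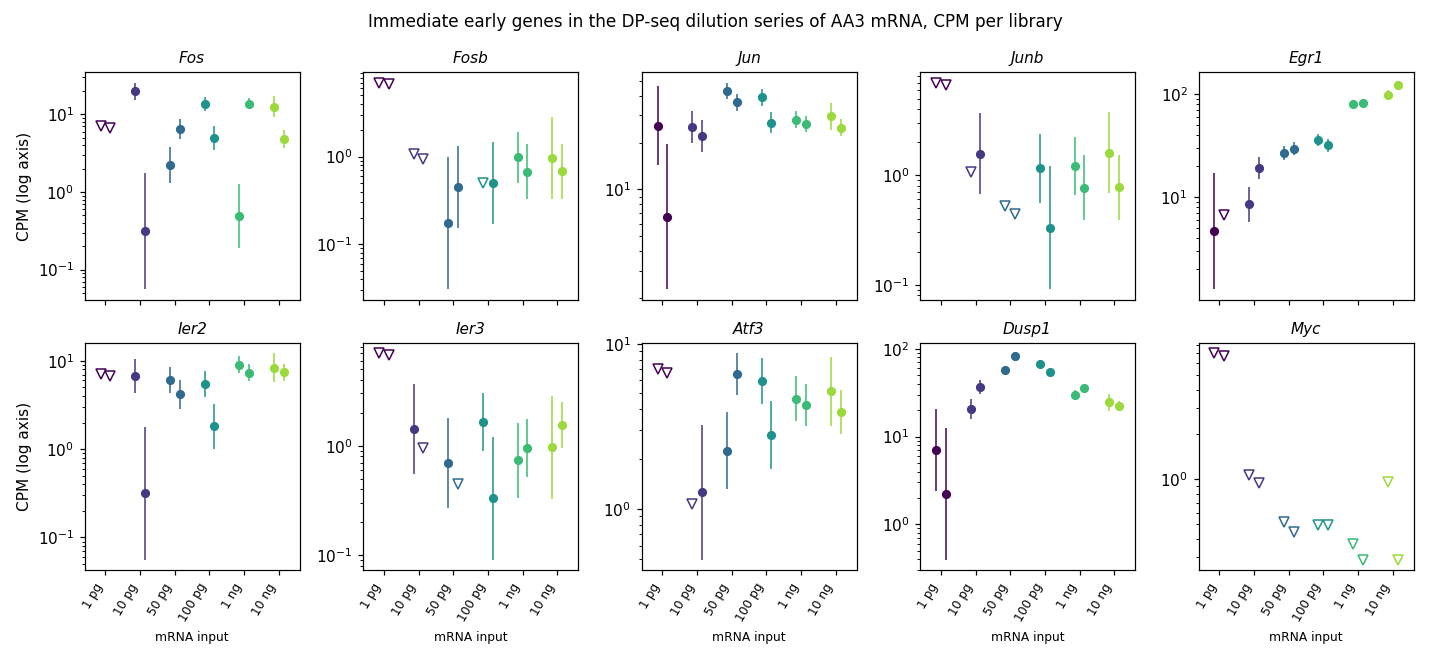
CPM (log axis) of the immediate early genes in DP-seq libraries of AA3 mRNA from 1 pg to 10 ng, with the inputs evenly spaced and not to scale. Each input has 2 technical replicates, with Wilson 95% intervals as bars. Open downward triangles stand for no count and are drawn at the level of 3 counts. Egr1 is highest at 10 ng, with 98.0 and 123 CPM, while Fos differs between replicates of 1 input, as at 1 ng (0.489 and 13.8 CPM).

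The genes whose profile over the 7 dose-set libraries was most like that of Jun were Limd2, Nek7 and Susd4, with a Pearson r of 0.998 for the first on the log2 scale of TMM-scaled CPM plus 1. For Egr1 they were Zrsr1 (r = 0.940), Arhgap42 and Elovl7, for Atf3 Thap12 (r = 0.992), Etfbkmt and Nap1l3, and for Dusp1 Pcnx4 (r = 0.965), Phf7 and Cfap300. The ranking covered the 8495 genes that averaged 50 counts or more. It is a description of 7 libraries that share the outlying second SFM library, and no other immediate early gene was among the 3 most alike of any of these 4 genes.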

How the data were processed

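Per the labels' protocols, libraries were made from mRNA of day 4 embryoid bodies, with 13 amplification cycles for SMART-seq cDNA. Per the file headers, the authors deposited unique read counts per RefSeq transcript. In 8 of the 33 deposited tables, 15 values in all were not whole, so these were treated as estimated counts and rounded. Aligner, counting rule, genome build and use of strand were not given in the sources used here. Overlapping genes can therefore share reads. The RefSeq gene table named 25853 of 26566 transcripts and GENCODE another 154, while 559 had no symbol. Counts were summed to 21844 genes. Apart from 0.0267% of 32-base words of Fosb, the transcripts of the 10 genes found in GENCODE shared no such word with another gene.

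CPM are counts per 1000000 counts of the library. Tests used edgeR 4.0.16 in R 4.3.3: filterByExpr by group (minimum count 10, minimum total 15), TMM scaling, robust quasi-likelihood fits over all genes and Benjamini-Hochberg adjustment at 0.05. Errors of log2 changes are SEs, the size of the change over the square root of F. Where a group has 1 library, the fit takes its spread from the other groups. The dose set was fitted on its 7 libraries, each method on its own, and differences between methods on 10 libraries together. Alternatives were DESeq2 1.42.0, RLE scaling, no filter, a replicate block, log2(dose + 1) and leaving out each replicate. Wilson and exact 95% intervals and floors of 3 counts cover counting error only.

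The members and gene lists were chosen with earlier results of these data known. Named were all 10 genes and, per comparison, up to 4 other immediate early genes and 2 of each further list with the largest change past the threshold. Each fit was first tested on simulated counts with known changes. In the dose set the changes put in between AA100 and AA3 were not recovered, and in SMART-seq the share of false calls was above the threshold.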

Additional observations from a re-analysis of the deposited data

How the results depend on the processing

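Counts of called genes are over all genes tested unless the 10 immediate early genes are named. DESeq2 called 17 genes for SB, 14 for AA3, 168 for AA15 and 106 for AA100 against SFM, 497 for the dose trend, 4431 for standard RNA-seq and 1135 for SMART-seq, including 3 of the 10 genes (Fos, Ier3, Atf3). The joint fit of 10 libraries called 269 genes for standard RNA-seq, with 0 of the 10, and 573 for SMART-seq, with 2 of the 10 (Ier3, Atf3). Without the filter SMART-seq gave 250 calls, RLE scaling gave 1 call for SMART-seq minus DP-seq, and log2(dose + 1) gave 18 for the trend. The deviations of same-numbered libraries had r = -0.016 in SMART-seq and -0.249 between AA15 and SFM. With the outlying second SFM library among them, these values do not settle whether same-numbered libraries were made together. The replicate block gave 0 calls for the trend and 54 for SMART-seq, and turned Fosb in SB against SFM to 0.34. Crossed numbers, tried after the data were seen, gave 5 calls for AA15 against SFM and 2 for the trend.

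Leaving out 1 replicate gave 0 to 7055 calls for SB, 0 to 6921 for AA3, 0 to 7815 for AA15 and 0 to 7156 for AA100 against SFM, with 0 to 4 of the 10 genes in each, and every call came without an SFM library. It gave 0 to 605 calls for AA100 against AA3 in the dose set, 0 to 693 for the trend, 47 to 53 for standard RNA-seq in the joint fit, with 0 to 0 of the 10 genes, and 11 to 18 for SMART-seq. Differences gave 5 to 291 (DP-seq minus standard), 8 to 272 (SMART-seq minus standard) and 0 to 65 (SMART-seq minus DP-seq). Signs turned within these log2 ranges. For SB against SFM they were Fosb -1.42 to 0.66, Jun -0.29 to 2.86, Ier2 -0.47 to 3.49 and Dusp1 -0.97 to 0.040. For AA3 they were Dusp1 -0.22 to 0.78, Ier2 -0.44 to 3.52 and Atf3 -0.093 to 3.50. For AA15 they were Dusp1 -0.003 to 1.02 and Ier2 -0.21 to 3.73, for AA100 Dusp1 -0.037 to 0.97 and Ier2 -0.45 to 3.50, and for the trend Ier2 -0.11 to 0.73. For AA100 against AA3 they were Fosb -0.44 to 0.081 in standard RNA-seq, Atf3 -0.19 to 0.076, Ier2 -0.34 to 0.064 and Dusp1 -0.40 to 0.23 in DP-seq, and Egr1 -1.46 to 2.90, Jun -1.63 to 0.032 and Dusp1 -0.049 to 0.55 in SMART-seq. For the method differences they were Jun -0.044 to 0.37 (DP-seq minus standard), Fosb -2.87 to 0.21, Myc -1.63 to 0.24 and Egr1 -2.05 to 2.32 (SMART-seq minus standard), and Dusp1 -0.082 to 0.61 and Egr1 -0.91 to 3.46 (SMART-seq minus DP-seq). The cause was not tested. Of the values of single genes under all alternatives, 728 kept direction and side of the threshold, 26 passed it anew, 19 no longer did and 30 turned.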
